A study of Homo sapiens with 8 samples.

Results

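The proteasome subunit genes are those whose symbol is PSMA, PSMB, PSMC, PSMD or PSME followed by a number and nothing more. They numbered 38 of the 15902 genes in the deposited intron tables and held 333 of the 142206 introns with values. By role they were 8 genes of the 20S alpha ring, 5 genes of the constitutive 20S beta ring, the inducible beta gene PSMB10, 6 ATPases and 11 non-ATPase subunits of the 19S regulatory particle, 3 assembly chaperones of that particle (PSMD5, PSMD9 and PSMD10) and the 4 activators PSME1 to PSME4. PSMB3, PSMB5, PSMB8, PSMB9 and PSMB11 were not analysed here, so the chymotrypsin-like site was not measured in either its constitutive or its inducible form. Genes were tested when intronic and spliced reads averaged at least 1 RPM (read per 1000000 reads of depth) over the 8 libraries, which kept 8248 genes and 37 of the 38 proteasome genes. The exception was PSMA8, an alpha subunit of the testis proteasome, which had no read in any library. A count of 0 there allows at most 0.0526 to 0.0638 RPM, from a floor of 3 reads per library.

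The proteasome is the protease that degrades ubiquitin-tagged proteins in the cytoplasm and nucleus. Its 20S core is a barrel whose outer alpha rings gate the entry and whose inner beta rings carry the catalytic sites. The 19S particle caps the barrel, where ubiquitin receptors bind the substrate, PSMD14 removes the ubiquitin chain and the ATPase ring unfolds the protein and threads it inward. The PSME proteins are alternative caps, and PSMB10 replaces PSMB7 in the immunoproteasome. Tumour cells depend on this machinery, and proteasome inhibitors are used as cancer drugs. The genes carry many introns, and their products are needed in fixed proportion within 1 complex.

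All RNA came from SUM159, a human cell line long established from a triple-negative breast tumour. Cells received H3B-8800, a modulator of the spliceosome's SF3b complex, which recognises intron branch points, or the solvent DMSO, for 12 h. The dose and any allele are not given in the labels. RNA was sequenced after pull-down with the J2 antibody, which binds double-stranded RNA, or without it (input), as polyadenylated RNA in both cases. The 4 groups were input with H3B-8800, input with DMSO, J2 RNA with H3B-8800 and J2 RNA with DMSO, each with 2 biological replicates of this 1 line. None was an immunoprecipitation with a control antibody, so a difference between J2 RNA and input is a difference in recovery and not a measure of double-stranded structure.

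The depths behind the deposited values ran from 47000000 to 57000000 reads per library, and RPM values are relative to these. Of 6 mesenchymal markers, VIM was at 459 to 653 RPM of spliced reads, AXL, CD44, FN1 and CAV1 at 6.81 to 277 RPM, and ZEB1 at 0.0377 to 0.902 RPM. Of 8 luminal markers, ESR1 and PGR had no spliced read, CDH1, EPCAM and FOXA1 were at most 0.0755 RPM, and KRT8 (82.7 to 124 RPM), ERBB2 (16.4 to 37 RPM) and GATA3 (1.54 to 2.33 RPM) were detected. Of the T cell and myeloid markers, CD3E and LYZ had no spliced read and CD68 had 5.88 to 9.46 RPM. The replicates of J2 RNA with H3B-8800 stood further apart than those of the other groups. The SD over genes of the difference in log2(RPM + 1) between replicates was 0.298 there, against 0.163 to 0.186 in the other 3 groups, and this difference followed the GC content of the transcript (Spearman correlation −0.495 over 8071 genes, given as a description). An exact permutation test of 2 against 2 libraries cannot fall below p = 0.333 (two-sided), so single summed values are given without a test.

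Spliced reads are reads that join the exons on both sides of a listed intron, summed over a gene. The proteasome genes made up 0.733% and 0.761% of all spliced reads in the input with H3B-8800, against 0.742% and 0.739% with DMSO, and the 2 groups overlapped. Within the family the genes moved in both directions. Of 37 tested genes, 12 rose and 16 fell with H3B-8800 in the input at an edgeR adjusted p under 0.05, while over all 8248 tested genes 21.9% rose and 48.2% fell. Their median log2 fold change was −0.21, beside −0.36 over all tested genes. A fall in spliced reads does not separate less RNA from less splicing, and in bulk RNA fewer cells with a transcript cannot be told apart from less RNA per cell. On a scale that sets the median ratio of genes to 1, the all-gene median became 0.04 and 18 proteasome genes rose and 13 fell, while 3074 genes of the whole table rose and 2836 fell, against 1803 and 3977 on the depth scale.

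**Figure D1:**
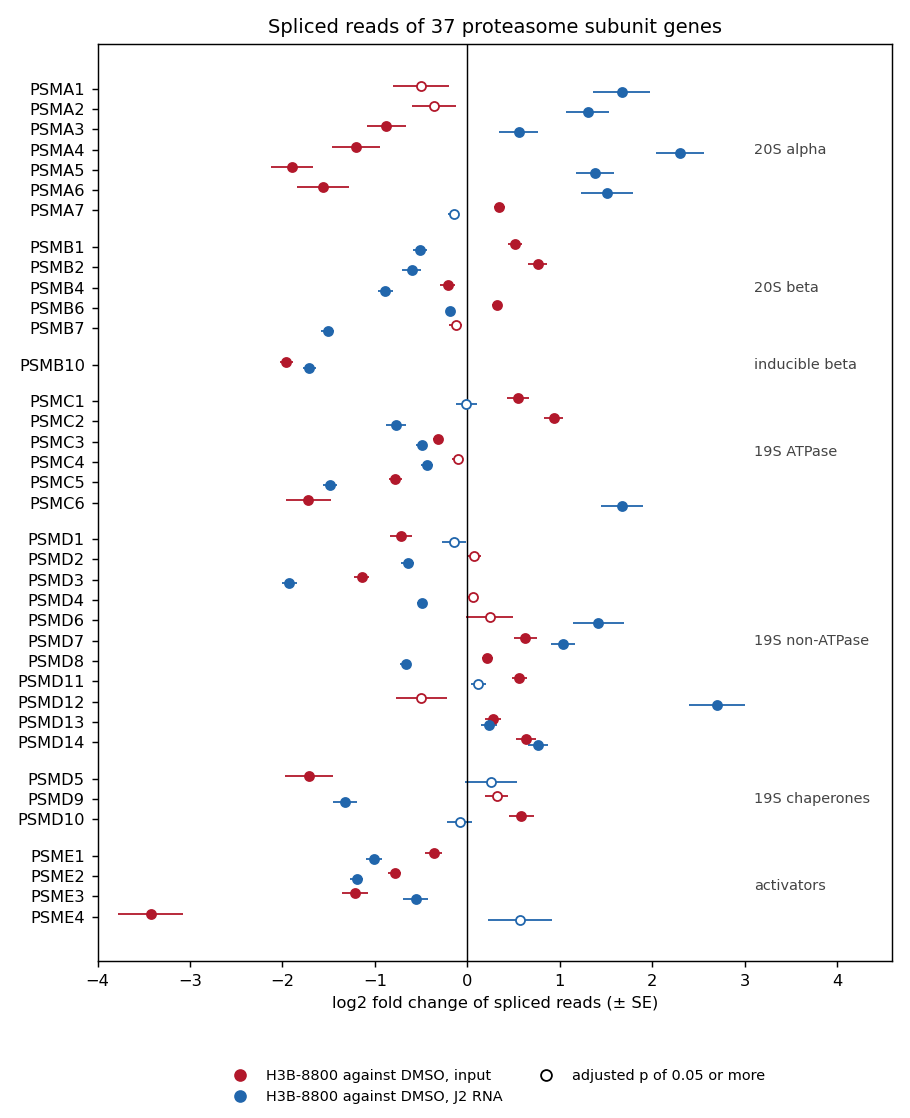
Log2 fold change of spliced reads (± SE) for H3B-8800 against DMSO, for 37 proteasome genes grouped by role, in the input (red) and in J2 RNA (blue), from 2 libraries per group. Open points did not pass the adjusted threshold of 0.05. PSMA1 to PSMA6 lie left of 0 in the input and right of 0 in J2 RNA, and PSME4 has the lowest value, −3.43.

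All 4 activator genes had lower spliced reads in the input with H3B-8800, where 48.2% of all tested genes fell. PSME4, which encodes the nuclear activator PA200, had 0.723 and 0.750 RPM of spliced reads in the input with H3B-8800, against 8.0 and 7.90 RPM with DMSO. Its log2 fold change was −3.43 ± 0.36 (edgeR adjusted p = 1.7e-05), the lowest of the 37 genes. PSME3, the nuclear activator PA28 gamma, had 10.7 and 12.0 RPM with H3B-8800, against 26.4 and 26.5 RPM with DMSO, and fell by 1.22 ± 0.14 on the log2 scale (adjusted p = 3.4e-05). Both libraries with drug lay below both with DMSO for each gene.

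PSME1 and PSME2 encode the 2 chains of the interferon-inducible activator PA28. PSME2 had 59.0 and 67.5 RPM with H3B-8800, against 112 and 106 RPM with DMSO, a log2 fold change of −0.78 ± 0.07 (adjusted p = 6.2e-06). PSME1 had 87.3 and 106 RPM with H3B-8800, against 122 and 127 RPM with DMSO, a log2 fold change of −0.37 ± 0.09 (adjusted p = 0.0044). Thus 4 of 4 activators fell on the depth scale, but the sign of PSME1 turned on the median-ratio scale (0.031), where 3 of 4 fell.

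PSMB10, the inducible counterpart of the trypsin-like subunit, fell in both kinds of RNA. It had 12.2 and 12.6 RPM in the input with H3B-8800, against 49.2 and 47.0 RPM with DMSO, and 12.1 and 11.5 RPM in J2 RNA with H3B-8800, against 37.6 and 39.7 RPM with DMSO. The log2 fold changes were −1.96 ± 0.07 (edgeR adjusted p = 1.4e-08) and −1.71 ± 0.07 (adjusted p = 3.7e-08). Its intronic reads in the input were 146 and 166 with H3B-8800 and 163 and 146 with DMSO, so they overlapped while the spliced reads did not.

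The constitutive beta ring went the other way in the input, with 3 of 5 genes higher, where 21.9% of all tested genes were. PSMB2 had 46.2 and 55.1 RPM with H3B-8800, against 30.9 and 28.8 RPM with DMSO, a log2 fold change of 0.76 ± 0.10 (edgeR adjusted p = 1.0e-04). PSMB6, the caspase-like catalytic subunit, had 112 and 116 RPM with H3B-8800, against 91.0 and 91.5 RPM with DMSO, a log2 fold change of 0.32 ± 0.05 (adjusted p = 3.6e-04). PSMB1 rose by 0.51 ± 0.07 on the same scale. PSMB7, the trypsin-like catalytic subunit, had 58.0 and 66.5 RPM with H3B-8800, against 66.8 and 69.2 RPM with DMSO, and did not pass the test (log2 fold change −0.13 ± 0.07, adjusted p = 0.13). PSMB4 fell by 0.21 ± 0.08 (adjusted p = 0.044), a call lost without any of 5 single libraries (−0.11, adjusted p = 0.28, without replicate 1 of the input with H3B-8800) and on the median-ratio scale, where 4 of 5 beta genes rose and none fell.

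In the alpha ring, 4 of 7 tested genes fell in the input, where 48.2% of all tested genes did. PSMA5 had 2.28 and 2.73 RPM with H3B-8800, against 9.38 and 9.29 RPM with DMSO, a log2 fold change of −1.90 ± 0.23 (edgeR adjusted p = 4.5e-05). PSMA4 had 3.23 and 3.19 RPM with H3B-8800, against 7.56 and 7.22 RPM with DMSO, a log2 fold change of −1.20 ± 0.26 (adjusted p = 0.0022). PSMA6 (−1.56 ± 0.28) and PSMA3 (−0.87 ± 0.21) fell as well, and PSMA1 and PSMA2 did not pass the test.

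PSMA7 stood apart from the rest of its ring. It was the gene with the highest level per listed intron of the family, 52.6 ± 0.906 RPM per intron in the input with DMSO (SD, n = 2), where the other 6 tested alpha genes were at 1.16 to 2.28 RPM per intron. Its spliced reads were 374 and 427 RPM with H3B-8800, against 312 and 319 RPM with DMSO. That was a rise of 0.34 ± 0.06 on the log2 scale (edgeR adjusted p = 6.6e-04).

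The 19S genes split. Of the 6 ATPases, 2 rose and 3 fell in the input, and of the 11 non-ATPase subunits 5 rose and 2 fell. Over all tested genes 21.9% rose and 48.2% fell. PSMC2, an ATPase of the ring, had 16 and 18.5 RPM with H3B-8800, against 8.94 and 9.16 RPM with DMSO, the largest rise of the 37 genes (log2 fold change 0.93 ± 0.10, edgeR adjusted p = 2.9e-05). PSMC6, another ATPase, had 2.28 and 2.10 RPM with H3B-8800, against 6.35 and 8.08 RPM with DMSO, a log2 fold change of −1.72 ± 0.24 (adjusted p = 1.3e-04).

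The deubiquitinase gene PSMD14 and its structural partner PSMD7 both rose. PSMD14 had 38.3 and 44.9 RPM with H3B-8800, against 26.7 and 26.9 RPM with DMSO, a log2 fold change of 0.63 ± 0.11 (edgeR adjusted p = 4.9e-04). PSMD7 had 34.5 and 38.5 RPM with H3B-8800, against 22.7 and 24.5 RPM with DMSO (0.63 ± 0.13, adjusted p = 0.0016). The groups did not overlap for either gene.

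PSMD4 and PSMD2, which bind ubiquitin or ubiquitin-like proteins, did not pass the test in the input. PSMD4, a ubiquitin receptor, had 124 and 134 RPM with H3B-8800, against 122 and 127 RPM with DMSO, with overlapping groups (log2 fold change 0.06 ± 0.06, edgeR adjusted p = 0.38). PSMD2, a large scaffold of the 19S base, had 100.5 and 111 RPM with H3B-8800, against 100.4 and 100.2 RPM with DMSO (0.08 ± 0.07, adjusted p = 0.36). PSMD3, a subunit of the 19S lid, had 43.2 and 50.5 RPM with H3B-8800, against 107 and 101 RPM with DMSO, and fell by 1.14 ± 0.08 on the log2 scale (adjusted p = 9.8e-07). Of the chaperones, PSMD5 fell (−1.71 ± 0.26) and PSMD10 rose (0.58 ± 0.14).

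The drug was compared with DMSO in J2 RNA as well. The share of spliced reads that came from proteasome genes was 0.696% and 0.710% with H3B-8800, against 0.916% and 0.915% with DMSO, and the groups did not overlap. Of the 37 genes, 12 rose and 18 fell with H3B-8800, where 34.5% of all tested genes rose and 39.5% fell. The median log2 fold change was −0.15, beside −0.03 over all tested genes. In this comparison 6 of 7 alpha genes rose, 5 of 5 beta genes fell and 3 of 4 activators fell on the depth scale. On the median-ratio scale 6 alpha genes rose, 4 beta genes fell and 3 activators fell.

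The 6 alpha genes that rose were those of low level. PSMA4 had 9.20 and 16.4 RPM in J2 RNA with H3B-8800, against 3.04 and 2.18 RPM with DMSO, a log2 fold change of 2.30 ± 0.26 (edgeR adjusted p = 2.9e-05). PSMA1, with 3.44 and 6.70 RPM with H3B-8800, against 1.30 and 1.88 RPM with DMSO, rose by 1.67 ± 0.31 (adjusted p = 7.5e-04). For each of PSMA1 to PSMA6, replicate 2 with H3B-8800 was higher than replicate 1, and both drug libraries lay above both DMSO libraries. PSMA3 rose least of the 6 (0.56 ± 0.21, adjusted p = 0.036), and without replicate 2 of J2 RNA with H3B-8800 its value was 0.11 (adjusted p = 0.44), while its call was also lost without any of 4 other libraries (0.46 to 0.66). PSMA7, with 369 and 378 RPM with H3B-8800, against 414 and 413 RPM with DMSO, did not pass the test (−0.15 ± 0.06, adjusted p = 0.052).

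**Figure D2:**
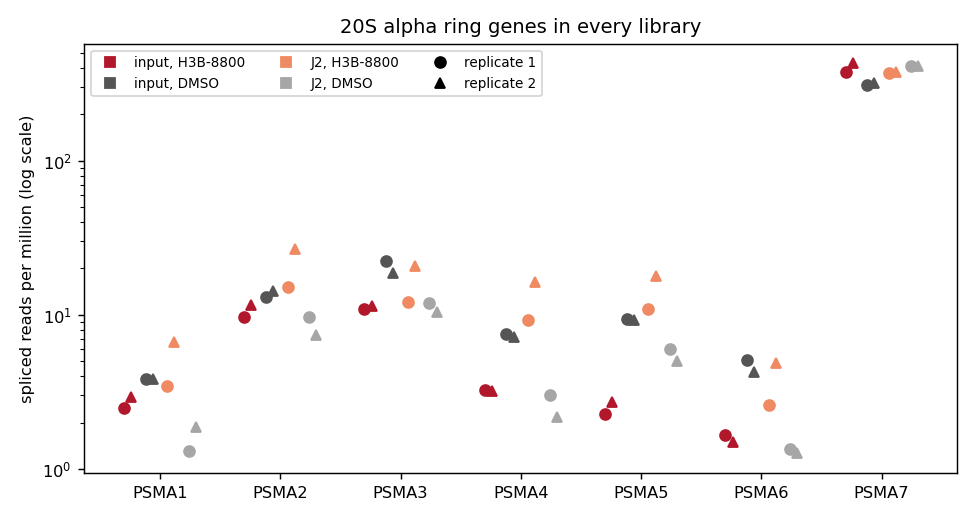
Spliced reads (RPM) of the 7 detected alpha ring genes in each library on a log axis, with circles for replicate 1 and triangles for replicate 2. For PSMA1 to PSMA6 the J2 RNA with H3B-8800 lies above the J2 RNA with DMSO in both replicates, and the input with H3B-8800 lies below the input with DMSO. PSMA7 lies at 312 RPM or more in each library.

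Among the other proteasome genes that rose in J2 RNA, PSMD12 and PSMC6 were low in level. PSMD12, a lid subunit, had 7.16 and 14.8 RPM with H3B-8800, against 1.70 and 1.67 RPM with DMSO, the largest rise of the family (log2 fold change 2.70 ± 0.30, edgeR adjusted p = 2.5e-05). Without replicate 2 of J2 RNA with H3B-8800 it was 2.09. PSMC6 had 7.84 and 11.9 RPM with H3B-8800, against 3.58 and 2.63 RPM with DMSO (1.67 ± 0.23, adjusted p = 1.1e-04). PSMD14 rose here as in the input, with 39.2 and 48.4 RPM with H3B-8800, against 26.6 and 25.0 RPM with DMSO (0.76 ± 0.11, adjusted p = 1.3e-04), and so did PSMD7 (1.04 ± 0.13).

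The falls in J2 RNA were led by PSMD3, PSMB10 and PSMB7. PSMD3 had 44.8 and 40.9 RPM with H3B-8800, against 165 and 161 RPM with DMSO, a log2 fold change of −1.93 ± 0.08 (edgeR adjusted p = 4.4e-08). PSMB7 had 36.1 and 37 RPM with H3B-8800, against 105 and 103 RPM with DMSO, a log2 fold change of −1.51 ± 0.07 (adjusted p = 7.5e-08). PSMB6 had 74.8 and 79.5 RPM with H3B-8800, against 88.8 and 86.4 RPM with DMSO, the smallest fall of the beta ring (−0.18 ± 0.05, adjusted p = 0.0098). The PSMB6 call was lost without replicate 1 of J2 RNA with H3B-8800 (−0.14, adjusted p = 0.067) and without replicate 1 of J2 RNA with DMSO (−0.16, adjusted p = 0.065).

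Among activators and receptors, PSME1 had 86.4 and 76.3 RPM in J2 RNA with H3B-8800, against 164 and 163 RPM with DMSO (log2 fold change −1.01 ± 0.09, edgeR adjusted p = 5.3e-06). PSME2 had 71.7 and 66.5 RPM with H3B-8800, against 159 and 158 RPM with DMSO (−1.20 ± 0.07, adjusted p = 3.4e-07). PSME3 fell by 0.56 ± 0.14 on the log2 scale (adjusted p = 0.0045). PSME4 had 1.08 and 2.34 RPM with H3B-8800, against 1.43 and 0.877 RPM with DMSO, and did not pass the test (0.57 ± 0.35, adjusted p = 0.16). PSMD4 had 112 and 107 RPM with H3B-8800, against 157 and 151 RPM with DMSO (−0.49 ± 0.06, adjusted p = 3.6e-05). PSMD2 fell by 0.64 ± 0.07 (adjusted p = 2.7e-05).

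The difference between the drug effects was tested itself, as the J2 log2 fold change less the input one. It was positive and past the threshold for 13 of the 37 genes and negative for 19, where 35.8% of all tested genes were positive and 14.2% negative. The median was −0.33 for the proteasome genes and 0.28 over all tested genes. On the median-ratio scale the proteasome counts were 10 positive and 20 negative, and over all genes 1792 and 2110, against 2956 and 1175 on the depth scale. By role, the alpha ring had 6 positive genes and 1 negative, PSMA7, and the beta ring had 5 negative of 5, under each of the depth, TMM and median-ratio scales.

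PSME4 had the largest positive difference, 4.0 ± 0.50 (edgeR adjusted p = 2.6e-04), and 3.34 without replicate 2 of J2 RNA with H3B-8800. PSMA4 followed with 3.50 ± 0.37 (adjusted p = 1.4e-04) and PSMC6 with 3.39 ± 0.33 (adjusted p = 1.1e-04). The most negative were PSMC2 with −1.70 ± 0.15 (adjusted p = 7.1e-05), PSMD9 with −1.64 ± 0.19 (adjusted p = 1.7e-04) and PSMB7 with −1.38 ± 0.10 (adjusted p = 4.4e-05). PSMD14 (0.13 ± 0.15) and PSMB10 (0.25 ± 0.10) did not pass.

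J2 RNA was also set against the input for each treatment. These comparisons share their libraries with the ones above, so their values are given side by side and not as separate evidence. With H3B-8800, 11 proteasome genes were higher in J2 RNA and 16 lower, where 28.4% and 27.6% of all tested genes were. With DMSO, 13 were higher in J2 RNA and 14 lower, where 16.6% and 43.8% of all tested genes were, and on the median-ratio scale 22 were higher and 10 lower, where 35.8% and 26.9% of all tested genes were. The count of 11 shifted when single libraries were left out.

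With DMSO, several low-level genes were lower in J2 RNA. PSME4 had 1.43 and 0.877 RPM in J2 RNA, against 8.0 and 7.90 RPM in the input, a log2 difference of −2.78 ± 0.33 (edgeR adjusted p = 9.6e-05). PSMD5 had 0.585 and 0.877 RPM in J2 RNA, against 3.46 and 2.96 RPM in the input (−2.13 ± 0.26, adjusted p = 1.2e-04), and PSMD12 was lower by 2.10 ± 0.30 on the log2 scale. PSMC5, an ATPase, was the highest in the other direction, with 119.5 and 115.5 RPM in J2 RNA, against 71.9 and 73.1 RPM in the input (0.70 ± 0.07, adjusted p = 3.6e-05). PSMD13 (0.69 ± 0.09) and PSMD3 (0.65 ± 0.08) followed.

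With H3B-8800, 6 of 7 alpha genes were higher in J2 RNA and 4 of 5 beta genes were lower. PSMA5 had 10.9 and 17.8 RPM in J2 RNA, against 2.28 and 2.73 RPM in the input, the largest difference (2.52 ± 0.23, edgeR adjusted p = 1.3e-05). PSMC6 (2.17 ± 0.24) and PSMA4 (2.00 ± 0.26) came next. PSMC2 had 5.20 and 4.98 RPM in J2 RNA, against 16 and 18.5 RPM in the input (−1.76 ± 0.11, adjusted p = 1.5e-06), followed by PSMB2 (−1.45 ± 0.10) and PSMD9, a chaperone of the ATPase ring (−1.22 ± 0.13). The calls of PSMA1 (0.35, adjusted p = 0.20) and PSMA3 (0.11, adjusted p = 0.48) were, among other libraries, lost without replicate 2 of J2 RNA with H3B-8800, and that of PSMA2 without replicate 1 of the input with H3B-8800 (0.86, adjusted p = 0.060).

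The drug effect in J2 RNA and the difference between J2 RNA and input with DMSO went with the base composition of the transcripts. The GC content of PSMA1 to PSMA6 lay between 39.9% and 46.0%, against 53.1% for PSMA7 and 46.4% to 54.9% in the beta ring. Over the 37 genes, the Spearman correlation of GC content with the log2 fold change was −0.73 for H3B-8800 in J2 RNA, 0.68 for J2 RNA against input with DMSO and 0.10 for H3B-8800 in the input. Over all 8071 tested genes with a linked transcript these were −0.44, 0.46 and −0.17. For J2 RNA against input with H3B-8800 the correlation was −0.38 over the 37 genes and 0.090 over all. GC content also went with level in the family (0.79 with spliced RPM per listed intron in the input with DMSO). All are descriptions across genes that share libraries. A GC and length trend was then removed from each library, an alternative added after seeing the data. On that scale 6 of 7 alpha genes rose in J2 RNA (median 0.97), and 4 of the 7 had a positive difference between the drug effects. Over all 8071 genes tested on it, 39.2% rose in J2 RNA and 20.4% had a positive difference. PSMB6 (0.37) and PSMD4 (0.075) turned positive in J2 RNA.

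**Figure D3:**
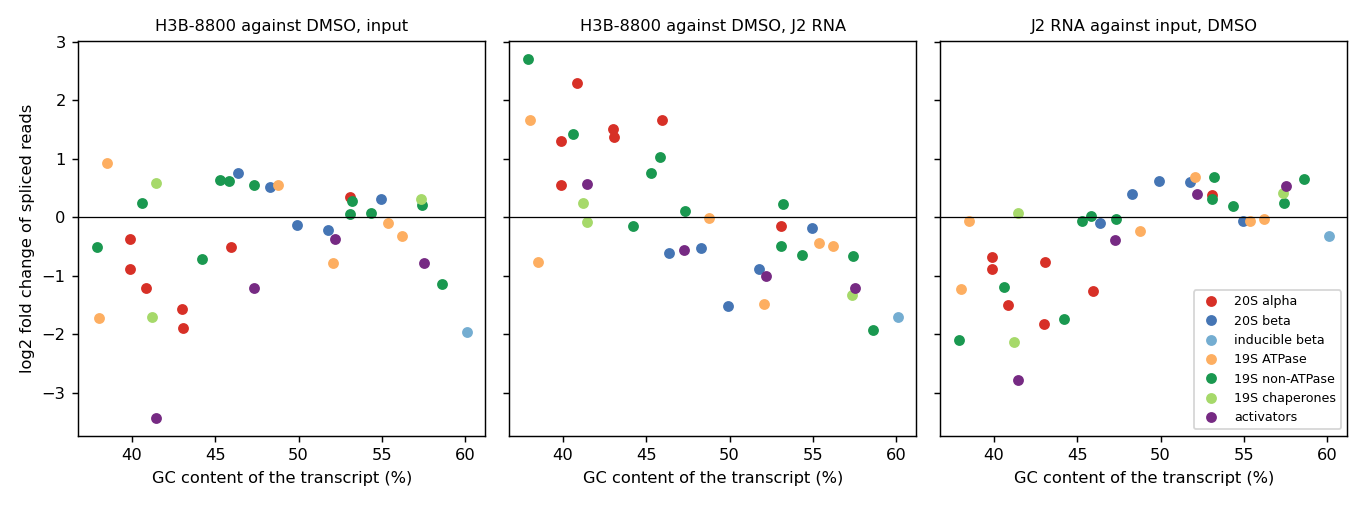
Log2 fold change of spliced reads against the GC content of the linked transcript (%), 1 point per proteasome gene (37 genes), coloured by role, for H3B-8800 against DMSO in the input and in J2 RNA and for J2 RNA against the input with DMSO. The middle cloud falls with GC content and the right one climbs, and the left one has no slope (Spearman −0.73, 0.68 and 0.10).

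The proteasome genes held a smaller intronic share than all listed genes together. The share is the reads inside listed introns over intronic plus spliced reads. For the proteasome genes it was 3.76% and 3.58% in the input with H3B-8800, against 1.04% and 0.961% with DMSO, and 3.72% and 3.58% in J2 RNA with H3B-8800, against 0.665% and 0.686% with DMSO. Over all listed genes it was 13.0% and 10.3%, against 3.81% and 3.83%, in the input, and 13.0% and 12.5%, against 3.63% and 3.98%, in J2 RNA. Both drug libraries lay above both DMSO libraries in each kind of RNA. The share counts reads anywhere in an intron without correction for its length, so it does not give how many transcripts retain it. Low intronic counts were often even, and if both ends of a fragment were counted, fewer fragments than reads stand behind the intronic counts, shares and read minima given here.

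**Figure D4:**
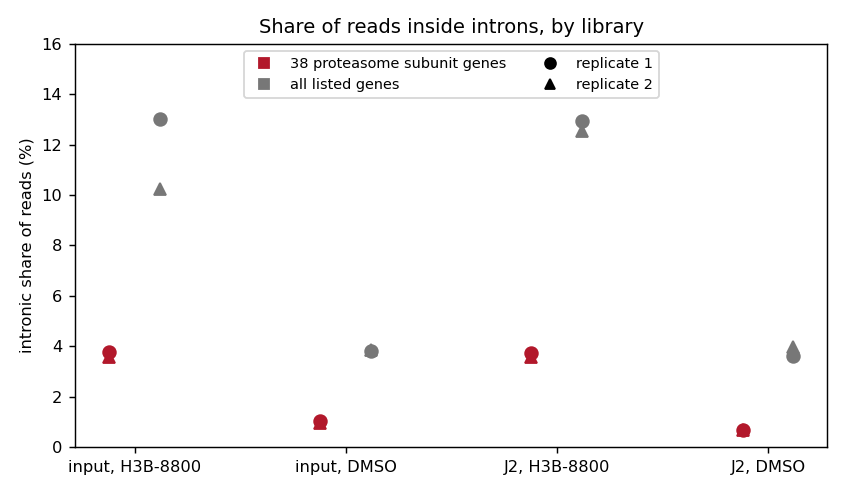
Intronic share of reads (%) in each of the 8 libraries, for the proteasome genes (red) and for all listed genes (grey), with circles for replicate 1 and triangles for replicate 2. The proteasome genes lie at 3.58% to 3.76% with H3B-8800 and at 0.665% to 1.04% with DMSO.

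Gene by gene, the ratio of intronic to spliced reads rose in most of the family. With H3B-8800 it was higher in 26 of 37 genes and lower in 1 in the input by limma, where 58.8% of all tested genes were higher and 2.05% lower. In J2 RNA it was higher in 23 and lower in 1, where 57.6% were higher and 4.69% lower. The median log2 change was 2.03 in the input and 1.92 in J2 RNA, beside 1.69 and 1.67 over all tested genes. When the median of each library was subtracted, 6 proteasome genes were higher and 5 lower in the input, where 1709 and 1787 of all tested genes were. In J2 RNA 11 were higher and 10 lower on that scale, where 1994 and 2157 of all tested genes were.

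PSMD3 had the largest change in both kinds of RNA. Its intronic share was 33.7% and 32.6% in the input with H3B-8800, against 1.60% and 1.67% with DMSO, and 27.7% and 28.3% in J2 RNA with H3B-8800, against 0.557% and 0.705% with DMSO. The log2 ratio changed by 4.89 ± 0.17 (limma adjusted p = 2.0e-06) and 5.92 ± 0.17 (adjusted p = 7.0e-07). This 1 gene held 33.4% of the intronic reads of the family in the input with H3B-8800, against 9.04% with DMSO. Without it, the family's share in the input with H3B-8800 was 2.54%.

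PSMD1, the large scaffold of the 19S base, had 88 intronic reads in the input with H3B-8800 (11.6% and 6.83%), against 6 with DMSO (0.571% and 0.248%), and 49 in J2 RNA with H3B-8800, against none with DMSO. The log2 ratio change was 4.28 ± 0.53 in the input (limma adjusted p = 3.3e-04) and 4.85 ± 0.53 in J2 RNA, the second of which depends on the added read and was 4.24 and 5.46 without replicate 1 and 2 of J2 RNA with H3B-8800. PSMD13, a lid subunit, had 198 with H3B-8800, against 19 with DMSO, in the input (3.48% and 3.85%, against 0.742% and 0.129%), a log2 ratio change of 3.37 ± 0.67 (limma adjusted p = 0.0035). This was 4.47 without replicate 1 of the input with DMSO and 2.27 without replicate 2. PSME3 had 31 with H3B-8800, against 2 with DMSO, in the input, and passed the test on these few reads (4.44 ± 0.61, 3.70 to 5.19 without single DMSO libraries).

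Some genes with few spliced reads had high shares in the input. PSMD5 was 40.0% and 50.5% intronic with H3B-8800, against 5.68% and 7.36% with DMSO (log2 ratio change 3.47 ± 0.67, limma adjusted p = 0.0031). Its introns 1 and 6 overlap exons of the antisense gene CUTALP. As the strand setting is not given, reads there may belong to either gene. The ATPase gene PSMC6 was 31.0% and 46.0% intronic with H3B-8800, against 15.3% and 12.5% with DMSO (1.93 ± 0.42, adjusted p = 0.0055). In J2 RNA neither passed the test. There PSMD5 was 4.55% and 17.2% intronic with H3B-8800, against 20.5% and 13.8% with DMSO (−0.83 ± 0.67), and PSMC6 24.3% and 18.7%, against 28.8% and 36.2% (−0.82 ± 0.42). The differences between the drug effects, −4.30 ± 0.94 and −2.75 ± 0.59, had adjusted p = 0.057 and 0.056. PSMA4, with −3.20 ± 1.04 (adjusted p = 0.13), had at most 4 intronic reads per library, and PSMD10 at most 6.

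PSMD14 was the 1 gene whose ratio fell in the input, while its spliced reads rose. It had an intronic share of 2.70% and 3.75% with H3B-8800, against 5.11% and 5.70% with DMSO. The log2 ratio changed by −0.79 ± 0.26 (limma adjusted p = 0.033), and the call was lost without replicate 1 of the input with H3B-8800 (−0.55, adjusted p = 0.19) and without either DMSO input library (adjusted p = 0.067 and 0.12). In J2 RNA the gene did not pass (0.13 ± 0.26). The 1 lower gene in J2 RNA was PSMD12 (−2.14, lost without replicate 1 of either J2 group), which had 4 intronic reads with H3B-8800 and 2 with DMSO, so its ratio followed the spliced reads. Neither PSMC2 nor PSMD9 passed in the input (−0.62 ± 0.74 and −0.95 ± 0.84).

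The catalytic and inducible beta genes differed. PSMB7 had an intronic share of 3.57% and 2.68% in the input with H3B-8800, against 2.70% and 2.41% with DMSO, which did not pass the test (log2 ratio change 0.29 ± 0.21, limma adjusted p = 0.27). In J2 RNA the same gene had 4.04% and 4.99% with H3B-8800, against 1.05% and 1.09% with DMSO (2.11 ± 0.21, adjusted p = 9.4e-05). Its difference between the drug effects, 1.83 ± 0.30 (adjusted p = 0.032), was the 1 positive call of the family, none being negative, where 1.59% of all tested genes were positive and 0.994% negative. That call was lost without any of 7 of the 8 libraries (1.61 to 2.04), and in those fits such calls also became rarer over all tested genes. Before adjustment 6 genes of the family were negative at p under 0.05 by limma. PSMB6 had an intronic share of 0.397% and 0.429% in the input with H3B-8800, against 0.206% and 0.107% with DMSO (1.33 ± 0.28, adjusted p = 0.0046), and its sign turned when library medians were subtracted. PSMB10 had 20.3% and 21.5% in the input with H3B-8800, against 6.45% and 5.74% with DMSO (2.03 ± 0.21, adjusted p = 1.2e-04).

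Among activators, PSME1 had an intronic share of 4.82% and 3.81% in the input with H3B-8800, against 1.03% and 1.22% with DMSO (log2 ratio change 1.97 ± 0.18, limma adjusted p = 6.7e-05). In J2 RNA it had 8.65% and 9.06% with H3B-8800, against 1.25% and 1.33% with DMSO (2.89 ± 0.18). PSME2 rose by 1.26 ± 0.34 in the input and 1.39 ± 0.34 in J2 RNA, and both signs turned when library medians were subtracted. The input call of PSME2 was lost without replicate 1 of the input with H3B-8800 (0.86) or replicate 2 of that with DMSO (0.92), and the J2 call without replicate 2 of J2 RNA with H3B-8800 (1.14). PSME4 held 6 to 20 intronic reads per group and did not pass. The receptors PSMD4 (2.26 ± 0.20) and PSMD2 (2.62 ± 0.52) rose in the input, the second on 41 intronic reads with H3B-8800, against 6 with DMSO, and it was 1.87 without replicate 1 of the input with DMSO and 3.37 without replicate 2.

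Few ratios passed the test between J2 RNA and input. With H3B-8800, 1 gene was higher in J2 RNA and 2 lower, where 2.39% and 4.32% of all tested genes were. PSME1 was the higher one (1.11 ± 0.18, limma adjusted p = 0.020), and PSMA5 (−3.35 ± 0.59) and PSMA2 (−2.00 ± 0.37) were lower. Each call was lost without any one of the libraries compared, but few genes of the whole table kept a call in those fits. The values there were 0.94 to 1.29 for PSME1, −3.74 to −2.95 for PSMA5 and −2.19 to −1.82 for PSMA2. With DMSO, none was higher and 5 were lower (PSMA2, PSMB7, PSMD3, PSMD4 and PSMD8), where 4.29% and 9.2% of all tested genes were. Of these calls, each but that of PSMD3 was lost without at least 1 of the single libraries. Before adjustment, 3 of the family were higher with DMSO at p under 0.05 by limma.

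Intronic reads alone were tested as well. With H3B-8800 they rose in 22 of 37 genes and fell in none in the input by edgeR, where 51.4% of all tested genes rose and 4.07% fell, and likewise rose in 22 and fell in none in J2 RNA, where 59.2% rose and 3.79% fell. None fell at an unadjusted p under 0.05 either, while DESeq2, on its own scale, gave 6 lower in each, where it gave 16.2% of all tested genes lower in the input and 18.7% in J2 RNA. The median log2 fold change of the family was 1.82 and 1.91, beside 1.26 and 1.75 over all tested genes. On the median-ratio scale 10 were higher and 6 lower in the input, where 23.3% and 20% of all tested genes were, while 9 were higher and 8 lower in J2 RNA, where 25.9% and 21.8% were. Between J2 RNA and input, 2 genes were higher and 5 lower with H3B-8800 (12.8% and 12.7% of all tested genes), and 2 were higher and 5 lower with DMSO (3.89% and 19.8%). PSMA6 alone had a positive difference between the drug effects (3.30 ± 1.13, adjusted p = 0.032) and no gene a negative one (2 at an unadjusted p under 0.05, and none by DESeq2), where 13.6% and 1.61% of all tested genes had.

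Introns of the same gene differed. Of the 333 listed introns, 252 in 36 genes had at least 20 reads on average and were tested. In the input with H3B-8800 the ratio was higher in 99 of them and lower in 3 by limma, where 40.7% of all 45220 tested introns were higher and 2.76% lower. Of these 99, 59 had at least 10 intronic reads with drug, and 13 had none in either group. In J2 RNA it was higher in 86 and lower in 30, where 39.9% and 6.24% were, but 20 of the 30 held no intronic read in either group, so their ratio followed the spliced reads and the added read. Between J2 RNA and input, 3 introns were higher and 13 lower with H3B-8800 (0.958% and 1.82% of all tested introns), and 1 was higher and 3 lower with DMSO (0.827% and 0.995%). No intron of the table had a difference between the drug effects past the threshold (0% in either direction), and 92 of the 252 were past an unadjusted p of 0.05 by limma.

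For values of single introns, 160 introns in 27 genes had at least 50 reads in each library. Of these, 17 were over 10% intronic in the input with H3B-8800, against 3 with DMSO, and 20 in J2 RNA with H3B-8800, against 1 with DMSO. Counts of this kind were not made over all introns, so they do not set the family apart. At the other end, 81 of the 160 stayed under 1% in the input with H3B-8800 and 35 had no intronic read there. Of the 17, PSMD3 held 6, PSMB10 held 3 and PSMD14 held 2. The share did not follow intron length closely (Spearman correlation 0.15 over the 160 introns). Its median was 0.816% in 52 introns under 200 bases, 0.654% in 53 introns of 200 to under 1000 bases and 1.71% in 55 introns of at least 1000 bases.

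PSMD3 held both high and low introns within 1 transcript. Its intron 1 (chr17:39981190-39984294, GRCh38, plus strand, between coding exons, given like all coordinates here from the last base of the exon before to the first base of the exon after) had 520 and 616 intronic reads in the input with H3B-8800, against 41 and 54 with DMSO. That was 79.2% ± 1.17 of its reads with H3B-8800 (SD, n = 2), against 9.81% with DMSO, and 75.0% in J2 RNA with H3B-8800, against 7.89% with DMSO. Intron 9 (chr17:39995527-39996183) was 53.6% intronic with H3B-8800, against 1.61% with DMSO, in the input, intron 8 (chr17:39995295-39995424) 34.5%, against 0.400%, and intron 11 (chr17:39997380-39997504) 23.0%, against 0%. Introns 3 and 4 of the same gene were at 1.09% and 0% with H3B-8800. The log2 ratio change was 6.88 for intron 11, 6.09 for intron 9 and 5.12 for intron 1 (limma adjusted p = 1.4e-04, 1.7e-04 and 1.6e-04).

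**Figure D5:**
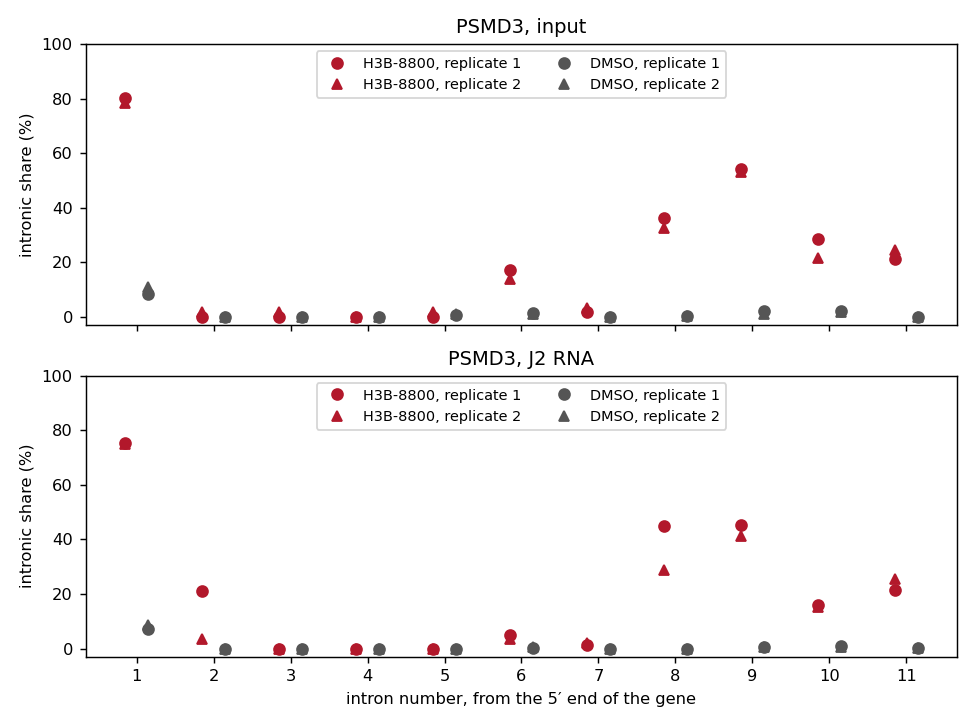
Intronic share (%) of the 11 introns of PSMD3, numbered from the 5′ end, in the input (upper panel) and in J2 RNA (lower panel), with H3B-8800 in red and DMSO in grey and 1 point per library. Introns 1, 8 and 9 stand highest with H3B-8800 (79.2%, 34.5% and 53.6% in the input), and introns 3, 4 and 5 lie near 0 in both.

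Of the 8 introns of the highest share, 4 were in PSMD3, 3 in PSMB10 and 1 in PSMB4, and PSME1 intron 3 (22.0%) and PSMD8 intron 6 (16.6%) were among those over 10%. PSMB10 intron 4 (chr16:67935697-67935963, minus strand) was 40.4% intronic in the input with H3B-8800, against 16.6% with DMSO. Its intronic reads there were fewer with drug (25 and 32, against 47 and 49), so its share followed the spliced reads (41 and 43, against 255 and 226). PSMB10 intron 6 (chr16:67934948-67935420), which overlaps an exon of AC040162.1 on the same strand so that its reads may belong to either, was 30.7%, against 7.23%, and intron 5 (chr16:67935478-67935582) 28.7%, against 10.01%. PSMB4 intron 5 (chr1:151401355-151401542, plus strand) was 23.6%, against 3.89%. PSMD14 intron 3 (chr2:161318873-161367478) was the exception, at 13.9% with H3B-8800, against 35.0% with DMSO, and it overlaps an exon of the antisense gene AC009299.2. At 0% in both input libraries with H3B-8800 were, among others, PSMB6 intron 1 (1208 and 1227 spliced reads), PSMB2 intron 3 (1043 and 1167 spliced reads), PSMB1 intron 2, PSMA2 introns 2 and 5 and PSMB4 intron 2. A count of 0 in such introns is limited by counting only, and reads without molecular identifiers are not independent molecules. In J2 RNA with H3B-8800, PSMB4 intron 2 had 8 and 6 intronic reads (2.48%), against 0% with DMSO. Its log2 ratio change there was 4.46 ± 0.51 (limma adjusted p = 7.5e-04). The other introns of this list had no intronic read in J2 RNA with H3B-8800.

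The last 50 bases of an intron usually hold the branch point and the polypyrimidine tract that SF3b and its partners bind, so they are shown for a pair of introns of each of 4 genes. Only introns with at least 50 reads in each library whose end lies inside a GENCODE 29 transcript could be read, in PSMD3 introns 5 and 6 alone, so its introns of highest and lowest share are not shown. The pair is the highest and the lowest share among these in the input with H3B-8800, and the percentages are of that group. The genes, chosen after the values were seen, are the 4 with the widest gap. All are written 5′ to 3′ on the strand of the gene, from GRCh38 transcripts, and the last 20 bases are in capitals.
PSMD3 intron 6, chr17:39990197-39994954, plus strand, 15.3% with H3B-8800: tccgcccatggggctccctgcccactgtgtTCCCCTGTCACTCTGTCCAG
PSMD3 intron 5, chr17:39989929-39990094, plus strand, 1.15%: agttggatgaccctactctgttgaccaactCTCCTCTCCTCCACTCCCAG
PSMB4 intron 5, chr1:151401355-151401542, plus strand, 23.6%: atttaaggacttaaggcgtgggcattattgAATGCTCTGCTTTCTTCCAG
PSMB4 intron 2, chr1:151400187-151400442, plus strand, 0%: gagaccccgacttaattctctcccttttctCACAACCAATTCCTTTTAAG
PSME1 intron 3, chr14:24137205-24137321, plus strand, 22.0%: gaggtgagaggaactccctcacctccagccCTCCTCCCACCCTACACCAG
PSME1 intron 8, chr14:24138263-24138345, plus strand, 0.615%: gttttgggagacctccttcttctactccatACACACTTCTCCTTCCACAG
PSMB10 intron 4, chr16:67935697-67935963, minus strand, 40.4%: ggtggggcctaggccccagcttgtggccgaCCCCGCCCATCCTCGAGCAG
PSMB10 intron 5, chr16:67935478-67935582, minus strand, 28.7%: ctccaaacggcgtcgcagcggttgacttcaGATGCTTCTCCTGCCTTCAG

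The pyrimidine content of the last 20 bases was 75% in the PSMD3 intron of higher share and 85% in that of lower share. In the same order it was 70% and 60% in PSMB4, 75% and 70% in PSME1, and 65% and 70% in PSMB10. Over the 56 such introns with a known end, its Spearman correlation with the intronic share in the input with H3B-8800 was −0.01. The GC content of the whole intron gave 0.41 over the 39 introns for which it could be read. All 95 family introns with a known 3′ end closed with AG, and all 105 with a known 5′ end opened with GT. These are descriptions of introns that share genes and libraries.

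Of a list of genes that assemble, regulate or serve the proteasome, 24 were in the tables and all 24 were tested. With H3B-8800, 5 rose and 14 fell in spliced reads in the input and 8 rose and 10 fell in J2 RNA, where 21.9% and 48.2% of all tested genes did in the input, and in J2 RNA 34.5% and 39.5%. On the median-ratio scale 8 rose and 8 fell in the input, where 37.3% and 34.4% of all tested genes did, and 10 rose and 10 fell in J2 RNA, where 38.1% and 37% did. The intronic ratio was higher in 12 and lower in 1 in the input (58.8% and 2.05% of all tested genes), while 14 were higher and 4 lower in J2 RNA (57.6% and 4.69%). With library medians subtracted, 4 were higher and 10 lower in the input, where 20.7% and 21.7% of all tested genes were. In J2 RNA 6 were higher and 8 lower on that scale, where 24.2% and 26.2% of all tested genes were. Of the assembly chaperones, PSMG1 had 8.0 and 8.25 RPM of spliced reads in the input with H3B-8800, against 20.8 and 20.9 RPM with DMSO (log2 fold change −1.36 ± 0.09, edgeR adjusted p = 6.6e-07). KIAA0368, which encodes the proteasome-binding scaffold ECM29, had 2.70 and 3.15 RPM with H3B-8800, against 14.6 and 16.5 RPM with DMSO (−2.41 ± 0.16). The deubiquitinase gene UCHL5 fell by 1.73 ± 0.15, and the shuttle factor gene UBQLN4 by 1.24 ± 0.08. NFE2L1, the transcription factor that induces proteasome genes when proteasome activity drops, had 140.5 and 152 RPM with H3B-8800, against 174.5 and 184 RPM with DMSO (−0.29 ± 0.06, adjusted p = 0.0025). Its sign turned on the median-ratio scale (0.11, adjusted p = 0.11). SHFM1, which encodes a small subunit of the 19S lid, had 19.3 and 25.5 RPM with H3B-8800, against 9.54 and 9.0 RPM with DMSO (1.27 ± 0.14, adjusted p = 3.0e-05). NFE2L1 and SHFM1 were chosen for this comparison after their values were seen.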

How the data were processed

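The authors deposited, for each listed intron of each library, the count of reads inside it, the count of those plus the reads spliced across it, and an RPKM value of the first. The files have no header, so the meaning of each column was inferred from its values. Per the submitters' processing notes HISAT2 2.0.4 was used and the builds hg38 and mm10 are named. The counting program and its strand setting are not given in the sources used here. Low intronic counts were often even. The depth of each library was taken from the deposited RPKM values, and 18 of 142224 listed introns had no values.

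Spliced reads were the second count minus the first, summed per gene. Counts of 4 groups of 2 libraries were fitted together with edgeR 4.0.16 (quasi-likelihood, depth as library size, 5 contrasts), and log2((intronic + 1)/(spliced + 1)) with limma 3.58.1, in R 4.3.3. Benjamini-Hochberg adjustment ran over all tested features (threshold 0.05). The replicates differed beyond sampling noise, and replicate numbers were not taken to pair libraries across groups. DESeq2 1.42.0, TMM and median-ratio scaling, other filters and pseudocounts, a replicate block and leaving out each library were alternatives. The tests were checked on simulated data. The proteasome genes, the gene lists and the tests were chosen with earlier results of these data known. Library values are given for the 3 genes with the highest and the 3 with the lowest fold change per comparison, the catalytic and inducible beta genes, the activators, PSMD14, PSMD2 and PSMD4, for introns of the highest and lowest share, and for some further members of each role. Of other pathway genes up to 4 with the smallest p per comparison were named, and NFE2L1 and SHFM1 were added after their values were seen.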

Additional observations from a re-analysis of the deposited data

Results flagged for a closer look

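The difference between the drug effects (J2 RNA less input) passed its own test for 13 proteasome genes upward and 19 downward in spliced reads (edgeR), 1 in intronic reads (edgeR) and 1 in the intronic ratio (limma). Values are log2 differences, and groups of 2 libraries allow no test for a library far from the others. In the alpha ring the spliced difference was 2.17 for PSMA1, 1.66 for PSMA2, 1.43 for PSMA3, 3.50 for PSMA4, 3.28 for PSMA5, 3.07 for PSMA6 and −0.49 for PSMA7. In the beta ring it was −1.03 for PSMB1, −1.37 for PSMB2, −0.67 for PSMB4, −0.51 for PSMB6 and −1.38 for PSMB7. Of the ATPases, PSMC6 was at 3.39, PSMC1 at −0.56, PSMC2 at −1.70, PSMC4 at −0.33 and PSMC5 at −0.71. Of the non-ATPase subunits, PSMD12 was at 3.20, PSMD6 at 1.18 and PSMD1 at 0.58, and negative values were −0.72 for PSMD2, −0.78 for PSMD3, −0.55 for PSMD4, −0.88 for PSMD8 and −0.45 for PSMD11. The chaperone PSMD5 was at 1.96, PSMD9 at −1.64 and PSMD10 at −0.66. The activators were at −0.64 for PSME1, −0.41 for PSME2, 0.66 for PSME3 and 4.0 for PSME4.

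The calls of PSMC1, PSMC4, PSMD1, PSMD6, PSMD10 and PSME3 were lost without at least 1 single library, and PSMD12 was at 2.59 without replicate 2 of J2 RNA with H3B-8800. PSMA6 also differed in intronic reads, by 3.30, and PSMB7 in the intronic ratio, by 1.83.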

How the results depend on the processing

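Counts of proteasome genes on each side of the threshold moved for intronic reads, the gene ratio and single introns. Those for spliced reads moved in some comparisons. Among alternative values of 120 single-gene results, 1563 kept their side of the threshold, 80 fell below it, 63 passed it and 11 turned sign. Sign was compared only for results past the threshold in the main fit. A filter of at least 1 RPM of intronic reads in 2 libraries left 16 proteasome genes of 3992 tested. Of these, 13 had higher intronic reads with H3B-8800 in J2 RNA and 11 in the input, where 83.7% and 78.3% of those tested had. A positive difference between the drug effects was found for 2, where 25.7% of those tested had one. Between J2 RNA and input 3 were lower with H3B-8800 and 3 with DMSO, where 18.9% and 29.4% of those tested were. DESeq2 gave 8 and 7 higher with drug in J2 RNA and input (21.4% and 19% of all tested genes) and 6 and 6 lower (18.7% and 16.2%). It gave 0 differences (3.2% positive and 2.21% negative). In J2 RNA it gave 3 and 0 lower than input with H3B-8800 and DMSO (5.23% and 4.64%). TMM gave 10 and 10 higher (29% and 24.1%), 6 and 6 lower (19.3% and 19.3%) and 0 differences (7.81% positive and 3.16% negative). It gave 1 lower in J2 RNA than input with DMSO (9.65%). Median ratios gave 9 and 10 higher (25.9% and 23.3%) and 8 and 6 lower (21.8% and 20%). They gave 0 positive and 1 negative difference (5.69% and 4.28%), and 1 lower in J2 RNA with DMSO (8.2%).

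The family's intronic share was 2.74% in J2 RNA and 2.54% in the input with H3B-8800 with PSMD3 not counted. The median over genes was 1.98% in J2 RNA with H3B-8800 and 0.340% with DMSO, and 2.87% in the input with H3B-8800 and 0.754% with DMSO. Over introns free of other genes, the share with DMSO was 0.638% in J2 RNA and 0.910% in the input.

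For the gene ratio, the intronic filter left 16 proteasome genes of 3967 tested. Here and below, the share of all genes tested in each setting follows in brackets. This filter gave 1 gene higher in J2 RNA than input with DMSO (9.35%) and 0 lower with H3B-8800 (7.71%). With drug, 13 were higher and 0 lower in J2 RNA (81.6% and 3.43%) and 12 higher in the input (82.6%). The differences were 4 positive and 1 negative (8.19% and 3.78%). A filter 5 times stricter gave 1 higher with DMSO (4.88%) and 2 positive differences (3.58%). With library medians subtracted 1 was higher in J2 RNA than input with DMSO (6.27%). With drug, 11 were higher and 10 lower in J2 RNA (24.2% and 26.2%), and 6 higher and 5 lower in the input (20.7% and 21.7%). A pseudocount of 5 gave 4 higher in J2 RNA than input with DMSO (10%), 8 lower with H3B-8800 (10.3%) and 3 lower with drug in J2 RNA (7.76%). It gave 5 positive and 8 negative differences (5.77% and 7.66%). A pseudocount of 0.5 gave 0 lower with drug in J2 RNA (3.89%).

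For single introns, a pseudocount of 5 gave 30 higher and 58 lower in J2 RNA than input with H3B-8800 (8.72% and 12.2% of all tested introns). With DMSO it gave 33 and 35 (9.81% and 7.92%). With drug, 52 were lower in J2 RNA (11.8%) and 13 in the input (6.16%). The differences were 29 positive and 61 negative (5.27% and 7.96%). A pseudocount of 0.5 gave 1 higher and 4 lower in J2 RNA than input with H3B-8800 (0.409% and 0.958%) and 0 higher with DMSO (0.259%). The stricter filter gave 0 higher in J2 RNA than input with DMSO (0.923%) and 3 lower with H3B-8800 (1.92%). With drug it gave 63 higher in the input (46.8%) and 6 lower in J2 RNA (3.64%). For spliced reads, DESeq2 gave 21 and median ratios 22 higher in J2 RNA than input with DMSO (33.1% and 35.8% of all tested genes). The GC and length correction gave 8 positive differences (20.4%).

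Correlations of same-numbered deviations ran from −0.077 to 0.110, so the numbers were not taken to pair libraries. These values cannot tell whether a pull-down and its input came from the same cells. A replicate block gave 0 positive gene-ratio differences (0.727% of all tested genes) and 2 genes lower with drug in J2 RNA (4.4%). It gave 0 introns higher or lower between J2 RNA and input with either treatment (0% of all tested introns).

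Leaving out single libraries gave 0 to 2 genes with higher and 1 to 5 with lower intronic reads in J2 RNA than input with DMSO, 0 to 1 positive and 0 to 2 negative intronic differences, and 5 to 12 genes with higher spliced reads in J2 RNA than input with H3B-8800. For the gene ratio it gave 0 to 1 higher and 0 to 3 lower in J2 RNA than input with H3B-8800, 0 to 1 higher and 3 to 4 lower with DMSO, 0 to 2 lower with drug in J2 RNA, 0 to 2 in the input and 0 to 3 positive differences. For introns it gave 0 higher and 0 lower between J2 RNA and input with either treatment, 15 to 32 lower with drug in J2 RNA and 1 to 4 in the input.

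Signs turned for spliced reads of PSMB10 (J2 RNA against input with DMSO, 0.047 by DESeq2 and median ratios), PSME1 (input, 0.031 by both), and with GC and length removed PSMB6 (0.37) and PSMD4 (0.075) with drug in J2 RNA and PSME1 (0.041) between J2 RNA and input with H3B-8800. With library medians subtracted, the ratio of PSMB6 was −0.95 in J2 RNA and −0.52 in the input, and that of PSME2 −0.49 and −0.60. The cause of these shifts was not tested. Intronic counts of a few reads per gene limit the ratio tests, and groups of 2 libraries limit every SE.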
